A study of Mus musculus with 16 samples.

Results

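The polysomal pool, the mRNA that sedimented with several ribosomes, was compared between Lck-/- and WT OT-1 T cells. Its values are the polysomal channel of all 16 2-colour Agilent arrays, red on the arrays of the first orientation and green on the dye swaps. The 2 arrays of each extract were averaged, which left 8 of 8 extracts in the comparison, 4 WT and 4 Lck-/-, and used 16 of the 32 channels of the series. The other 16 channels hold the sub-polysomal pool and serve here only as a partner for single values. Per the labels, both groups were mouse lymph node T lymphocytes that were OT-1het and Rag-/-, and the Lck-/- group lacked Lck in addition. All were cultured ex vivo and received 100 nM of the SIINFEKL peptide for 24 h, then 100 µg/ml cycloheximide for 10 min before harvest. Extracts without nuclei were separated on sucrose steps of 10% to 50% into 10 fractions. Fractions 6 to 10 were pooled as polysomal and 1 to 5 as sub-polysomal, and 1.5 µl was labelled from either pool, whatever its RNA mass. The labels give no age, sex or cell number, and do not say how the Lck deficiency was made or what the word OFF in the series title stands for. Nor do they say whether an extract came from 1 animal or several or from separate cultures. The design text calls the extracts biological replicates; where they share a source, the p-values reflect no more than the spread among these extracts.

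OT-1 is a transgenic T cell receptor that recognises the ovalbumin peptide SIINFEKL on the class I molecule H-2Kb. On a Rag-deficient background, which cannot rearrange its own receptors, nearly all T cells are CD8 cells of this specificity. Lck is the Src-family kinase, carried by CD4 and CD8, that phosphorylates the CD3 chains and Zap70 when the receptor binds its ligand. Activated CD8 T cells build ribosomes, raise glycolysis and lipid synthesis, enter the cell cycle and make effector proteins, and mRNAs in translation carry several ribosomes, which moves them to the heavy sucrose fractions. A level in the polysomal pool depends both on how much of an mRNA a cell holds and on the share of it that is on polysomes. In such a bulk sample fewer cells of a type and less RNA per cell cannot be told apart.

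Some arrays stood apart before any comparison. The polysomal channel had 22233 to 26643 probes well above background on 7 of the 8 arrays where it was Cy5, and 14619 to 18192 where it was Cy3. The first array of Lck-/- replicate 1 (Cy5) had 50776, and its control spots had a median of 7.89 log2, against 5.62 to 5.76 on the other Cy5 arrays and 7.70 to 8.05 on the Cy3 arrays. Per extract this gave 21345 ± 805 probes in WT and 23605 ± 6600 in Lck-/- (SD, n = 4 each), which did not separate (two-sided exact permutation test over 70 arrangements, p = 0.943). With Lck-/- replicate 1 from its dye swap alone the Lck-/- mean was 19285 ± 2080, below that of WT (exact permutation test, p = 0.0857). The arrays of WT replicates 1 and 2 went against their labels. The deviations of WT replicate 1 from the mean of its genotype and dye correlated at -0.38 with those of its own dye swap and those of WT replicate 2 at -0.61, across genes. Exchanging the 2 dye-swap arrays gave 0.76 and 0.51, while the other 6 extracts had 0.26 to 0.64, the lowest being Lck-/- replicate 1. Results are therefore given as labelled, and also with the crossed pairing (the dye swaps of WT replicates 1 and 2 exchanged) and with Lck-/- replicate 1 taken from its dye-swap array alone. The crossed pairing leaves the difference of a gene as it is, unless a spot was left out on 1 of the arrays, and alters its error. The spread of the log2 deviations was 0.59 (SD) on the first array of Lck-/- replicate 1 and 0.25 to 0.50 on the other 15 arrays.

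**Figure D1:**
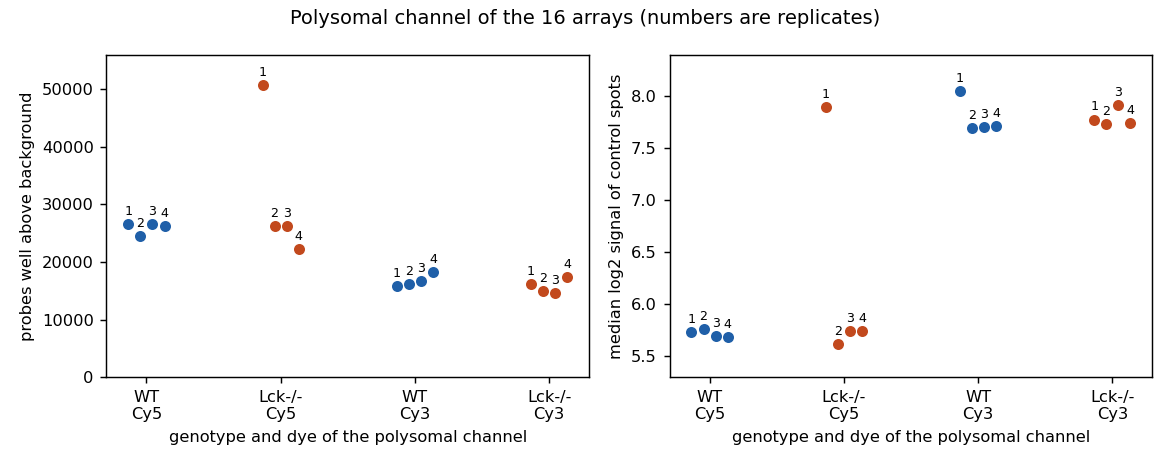
Probes well above background (left, count) and the median log2 signal of control spots before normalisation (right) in the polysomal channel of each array, by genotype and by the dye that carried polysomal RNA. Points are single arrays labelled with the replicate number; the Cy5 array of Lck-/- replicate 1 sits at 50776 probes and 7.89, apart from the other Cy5 arrays.

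Because a fixed volume was labelled, the signal before normalisation was also read. The median background-corrected log2 signal of the polysomal channel over the genes tested was 10.29, 10.22, 10.83 and 10.49 in the WT extracts and 9.84, 9.94, 10.17 and 10.17 in the Lck-/- extracts. Every Lck-/- extract lay below every WT extract, the difference was -0.43 log2 and the two-sided exact permutation test gave p = 0.0286, the smallest that 4 against 4 allows. The difference was -0.30 to -0.51 without 1 extract, -0.52 with Lck-/- replicate 1 from its dye swap alone and -0.42 with the crossed pairing. The exact permutation p stayed at 0.0286 with the dye swap alone and without WT replicate 1, 2 or 4. It was 0.0857 with the crossed pairing, without WT replicate 3 and without Lck-/- replicate 1, and 0.0571 without any of the other 3 Lck-/- extracts. The sub-polysomal channel of the same extracts differed by 0.34 the other way (two-sided exact permutation test, p = 0.0857). Both depend on the labelling, the dye and the scan as well as on RNA mass, and normalisation removes such an overall shift from what follows.

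Levels are given as normalised log2 intensity, per extract in the order of replicates 1 to 4, and differences are Lck-/- minus WT in log2, with SE the standard error from limma. Of 10301 genes tested, 604 (5.86%) were higher and 945 (9.17%) lower in the Lck-/- polysomal pool at an adjusted p below 0.05 (limma, Benjamini-Hochberg over all genes), in all 1549 or 15% of the genes. A gene was tested when its probe was well above background on at least 6 of 8 arrays of at least 1 genotype, so a dim gene could pass through the genotype where it was higher. Of 8291 genes above background on all 16 arrays, 557 were higher and 670 lower. The change was at least 2-fold for 131 of the rises and 262 of the falls. The 4 and 4 extracts did not overlap for 2357 genes (22.9%; 10% higher and 12.9% lower), among them 1423 of the 1549 called. The direction balance depended on the scaling: rises made up 39% of the calls, against 25.7% with the polysomal channels quantile-normalised alone, 23.7% from Agilent's processed signals, 3.08% with the 75th percentile scaling and 2.38% with median centring. The last 2 moved the median of all genes from 0.00 to -0.23 and -0.30. Over all genes tested, the shares called higher were 3.49% (quantile), 2.83% (Agilent), 0.398% (75th percentile) and 0.505% (median centring), and the shares called lower were 10.1%, 9.11%, 12.5% and 20.7%. With the crossed pairing 209 genes were higher (2.03%) and 487 lower (4.73%), in all 696 or 6.76%, of which 695 were also called as labelled. With Lck-/- replicate 1 from its dye swap alone 996 were higher and 999 lower, 1418 of them in common. Called in all 3 were 203 rises and 477 falls, 6.6% of the genes tested. Leaving out 1 extract gave 357, 225, 210 and 374 rises without WT replicates 1, 2, 3 and 4, and 1345, 279 and 162 without Lck-/- replicates 1, 3 and 4. The falls numbered 546 and 519 without WT replicates 2 and 3, 596 without Lck-/- replicate 3 and 536 without Lck-/- replicate 4. Where counts of gene lists are given on leaving out several extracts, these were left out 1 at a time.

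**Figure D2:**
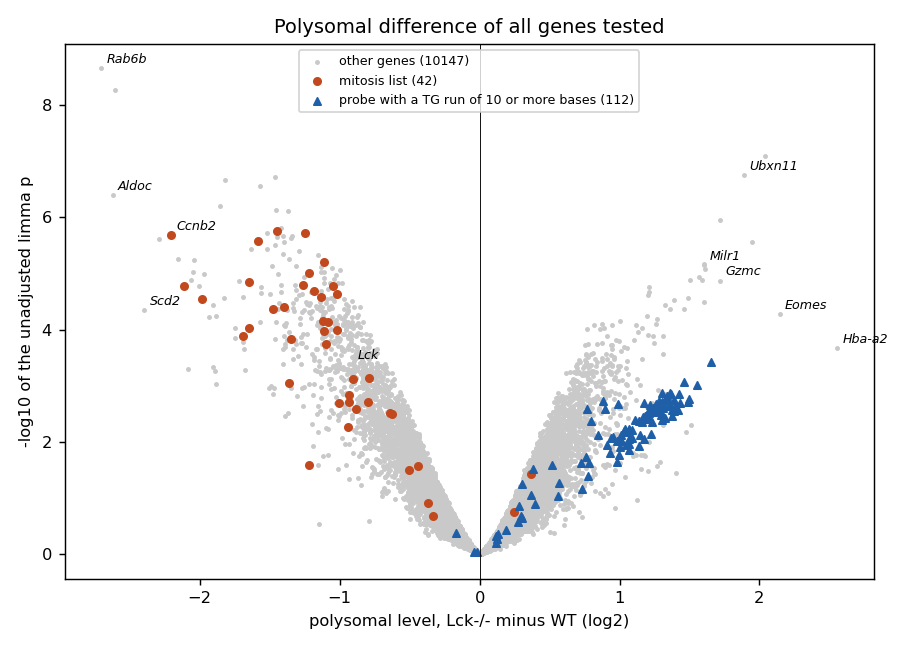
Each point is 1 of the 10301 genes tested, by its polysomal difference (Lck-/- minus WT, log2, horizontal) and the -log10 of its unadjusted limma p (vertical). Genes of the mitosis list (42 tested) lie mostly to the left, and genes measured by a probe with a TG run of 10 or more bases (112) mostly to the right.

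Lck, the kinase that the genotype names, was read first, by a probe on mm9 chr4:129225614-129225673 (minus strand). Its polysomal level was 15.26, 15.42, 14.78 and 15.39 in the WT extracts and 14.26, 14.64, 14.11 and 14.19 in the Lck-/- extracts. The 4 WT values were above all Lck-/- values, with WT replicate 3 (14.78) next to Lck-/- replicate 2 (14.64). The difference was -0.91 (SE 0.19, 1.88-fold, adjusted p = 0.0108), with 0.0328 for the crossed pairing and 0.00934 with Lck-/- replicate 1 from its dye swap alone. The probe stayed well above background on 8 of 8 arrays of both genotypes, the sub-polysomal level differed by -0.79, and the ratio of the pools by -0.12 (adjusted p = 0.682). Whether the probe lies in the part that was deleted is not given in the sources used here, so this level does not check the genotype.

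The 12 largest rises, chosen with no overlap and without probes of widely shared sequence, ran from 1.49 to 2.55 log2. Eomes, the T-box factor of effector and memory CD8 cells and of NK cells, was at 9.71, 9.47, 9.31 and 10.08 in the WT extracts and 10.59, 12.24, 11.84 and 12.48 in the Lck-/- extracts. The 4 Lck-/- extracts lay above the 4 WT extracts, and the nearest across the gap were WT replicate 4 (10.08) and Lck-/- replicate 1 (10.59). It rose by 2.14 (SE 0.35, 4.42-fold, adjusted p = 0.00381). Gzmc, a granzyme of late cytotoxic cells, was at 7.76, 8.17, 8.28 and 8.33 in the WT extracts and 9.95, 9.20, 10.44 and 9.84 in the Lck-/- extracts. No WT extract reached into the Lck-/- range, with WT replicate 4 (8.33) and Lck-/- replicate 2 (9.20) closest to each other. Its difference was 1.72 (SE 0.24, 3.3-fold, adjusted p = 0.00239). S100a4 and S100a6, calcium-binding proteins of effector and memory T cells, rose together, by 1.72 (SE 0.19, 3.29-fold, adjusted p = 0.00097) and 1.57 (SE 0.22, 2.97-fold, adjusted p = 0.0023). S100a4 stood at 7.87, 8.08, 8.62 and 8.37 in the WT extracts and 9.81, 10.14, 10.09 and 9.76 in the Lck-/- extracts. The groups did not overlap, and the gap between them ran from WT replicate 3 (8.62) to Lck-/- replicate 4 (9.76).

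Hba-a2, an alpha globin chain of red blood cells, had the largest rise of the 12, with 9.12, 9.52, 9.38 and 9.62 in the WT extracts and 13.71, 12.10, 11.32 and 10.73 in the Lck-/- extracts. The Lck-/- extracts spread widely, from replicate 1 as the highest to replicate 4, which still lay above all WT extracts. The difference was 2.55 (SE 0.48, 5.87-fold, adjusted p = 0.0073). The summed level (log2 of the sum of linear intensities) of the 3 tested of 7 red blood cell markers was 9.67 to 10.11 in WT and 10.997 to 13.86 in Lck-/-. Hba-a1 differed by 1.12 (adjusted p = 0.0802) and Alas2 was above background on 1 of 16 arrays. The part of red cell RNA in other results was not tested.

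Ubxn11, a UBX domain protein, had the smallest error of the 12 largest rises. Its levels were 8.64, 8.79, 9.02 and 8.88 in the WT extracts and 11.08, 10.39, 10.72 and 10.69 in the Lck-/- extracts. Each Lck-/- extract exceeded each WT extract, and WT replicate 3 (9.02) and Lck-/- replicate 2 (10.39) bounded the gap. Ubxn11 rose by 1.89 (SE 0.17, 3.7-fold, adjusted p = 0.000377). St6galnac2, a sialyltransferase, was well above background on 0 of 8 WT arrays and 7 of 8 Lck-/- arrays, with 6.55, 6.52, 6.52 and 6.54 in the WT extracts and 7.80, 7.49, 8.68 and 8.58 in the Lck-/- extracts. Its rise was therefore at least 2.71-fold (adjusted p = 0.00322), and the olfactory receptor gene Olfr224, with WT levels well above background on only 1 of 8 arrays, changed by 1.94 (adjusted p = 0.00114). Milr1, an inhibitory receptor of mast cells, and Exosc2, a subunit of the RNA exosome, rose by 1.60 (SE 0.21, 3.04-fold, adjusted p = 0.00195) and 1.49 (SE 0.22, 2.8-fold, adjusted p = 0.00304). Their probes share a stretch that is printed with the ratios. Ralgps1, an exchange factor for Ral GTPases, at a difference of 1.66 (adjusted p = 0.0103), and the serine protease Tmprss3 at a difference of 1.55 (adjusted p = 0.0162) complete the 12, and both are read by probes with a TG repeat.

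The 12 largest falls ran from -2.01 to -2.70 log2 and are ordered here by what the genes do. Rab6b, a GTPase of Golgi transport, fell furthest, from probes above background on 8 of 8 WT arrays to 2 of 8 Lck-/- arrays. Its levels were 9.20, 9.42, 9.35 and 9.82 in the WT extracts and 6.80, 6.91, 6.61 and 6.67 in the Lck-/- extracts. Extracts of the genotypes were separate, with WT replicate 1 (9.20) and Lck-/- replicate 2 (6.91) at the facing edges. The difference was -2.70 (SE 0.17, 6.51-fold, adjusted p = 2.3e-05), the lowest adjusted p of the 24 genes. Cd81, a tetraspanin of the T cell surface, was at 10.73, 10.80, 10.83 and 11.11 in the WT extracts and 8.86, 8.96, 8.88 and 7.62 in the Lck-/- extracts. Between the groups there was no overlap, the nearest extracts being WT replicate 1 (10.73) and Lck-/- replicate 2 (8.96). It fell by 2.29, which is 4.89-fold (SE 0.27, adjusted p = 0.00112). Gnas, the stimulatory G protein alpha subunit, changed by -2.16 (adjusted p = 0.00174).

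The hypoxia-responsive genes Aldoc, Bnip3 and Egln3 and the mitochondrial Mgarp were among the 12. Aldoc, the aldolase C of glycolysis, was at 10.99, 10.79, 10.22 and 10.67 in the WT extracts and 7.38, 8.21, 7.92 and 8.67 in the Lck-/- extracts. The WT extracts all lay above the 4 Lck-/- extracts, and the nearest across the gap were WT replicate 3 (10.22) and Lck-/- replicate 4 (8.67). Bnip3, a mitophagy receptor, was at 13.16, 13.15, 13.03 and 13.57 in the WT extracts and 10.46, 11.40, 10.79 and 12.01 in the Lck-/- extracts. All WT values were above all Lck-/- values, with WT replicate 3 (13.03) next to Lck-/- replicate 4 (12.01). The falls were -2.62 (SE 0.26, 6.16-fold, adjusted p = 0.000518) for Aldoc and -2.06 (SE 0.29, 4.18-fold, adjusted p = 0.00239) for Bnip3. Egln3, a prolyl hydroxylase that marks HIF for destruction, changed by -2.04 (adjusted p = 0.00174), and Mgarp -2.01 (adjusted p = 0.00249). Scd2, a stearoyl-CoA desaturase, was at 13.48, 13.49, 13.12 and 13.43 in the WT extracts and 11.81, 11.71, 9.69 and 10.74 in the Lck-/- extracts. WT replicate 3 stood apart as the lowest of its group and still lay above all Lck-/- extracts, and the difference was -2.40 (SE 0.38, 5.26-fold, adjusted p = 0.00346). Genes of the dividing cell were also among the 12: the cyclin Ccnb2, the spindle protein Nusap1 at a difference of -2.11 (adjusted p = 0.0025) and the histone H2bc1 at a difference of -2.08 (adjusted p = 0.0115). All 24 of these genes were also called with the crossed pairing and with Lck-/- replicate 1 from its dye swap alone, each taken by itself.

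**Figure D3:**
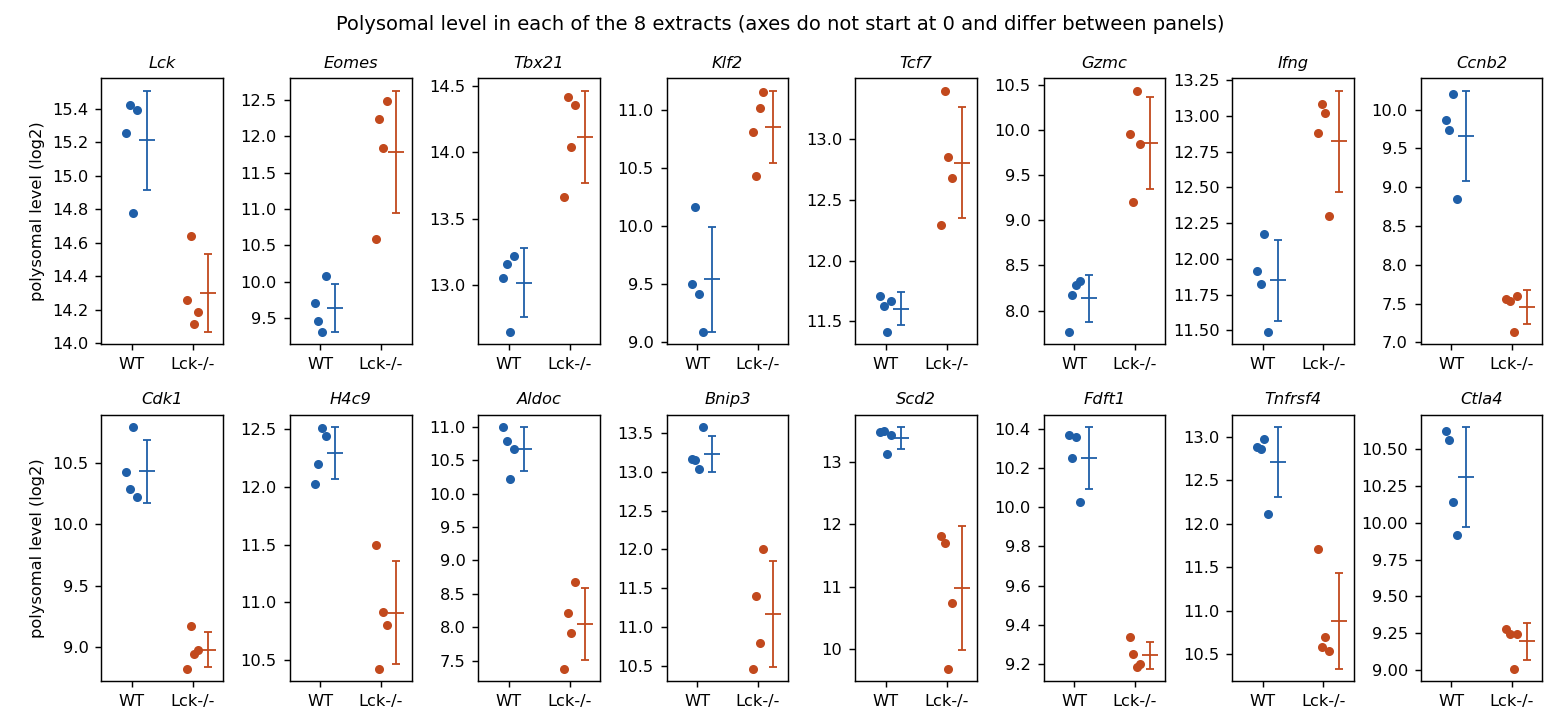
Polysomal level (normalised log2 intensity) of 16 genes in each of the 8 extracts, WT in blue and Lck-/- in orange; the dash and bars beside the points are the mean and SD of 4 extracts, and axes differ between panels. The groups do not overlap in any of the 16 panels.

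Genes of cell division fell as a group. Of 45 listed genes of mitosis, 42 were tested, 35 fell and 0 rose. Of all genes tested, 9.17% fell and 5.86% rose. For 32 of the 42 every Lck-/- extract lay below every WT extract, against 12.9% of all genes tested. The median of the 42 was -1.10 log2 against 0.00 for all genes, and -1.005 with Lck-/- replicate 1 from its dye swap alone. Under the 4 other scalings it ran from -1.24 to -1.57. The falls numbered 29 with the crossed pairing, 34 with Lck-/- replicate 1 from its dye swap alone, and 27 to 35 without 1 extract. On slide 1 alone 17 fell and on slide 2 alone 28, where 1 rose. Of 26 members above background on all 16 arrays, which did not pass the filter through 1 genotype alone, 22 fell (median -1.10). In the sub-polysomal pool the same 42 had a median of -0.86, and 2 of the 29 with a tested ratio were lower in the ratio, against 0 with the crossed pairing and 24 with median centring. On leaving out WT replicate 1, 2 or 3 the ratio called 0 of them, and for WT replicate 4 or Lck-/- replicate 2, 3 or 4 it called 1. Of the 8499 genes with a tested ratio, 0.906% were lower. In the crossed pairing 0 of the 8499 were lower, and 4686 under median centring.

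Cyclins B1 and B2 (Ccnb1, Ccnb2) activate Cdk1, whose activity starts mitosis, and Bub1 is a kinase of the spindle checkpoint. Ccnb2 was at 9.87, 9.74, 10.20 and 8.84 in the WT extracts and 7.56, 7.53, 7.13 and 7.60 in the Lck-/- extracts. The groups did not overlap, and the gap between them ran from WT replicate 4 (8.84) to Lck-/- replicate 4 (7.60). It fell by 2.21 (4.62-fold, SE 0.26, adjusted p = 0.00112), and the probe was above background on 6 of 8 Lck-/- arrays. Cdk1 was at 10.42, 10.28, 10.79 and 10.22 in the WT extracts and 8.82, 9.17, 8.95 and 8.97 in the Lck-/- extracts. Each WT extract exceeded each Lck-/- extract, and WT replicate 4 (10.22) and Lck-/- replicate 2 (9.17) bounded the gap. Its difference was -1.45 (SE 0.17, 2.73-fold, adjusted p = 0.00112), that of Ccnb1 -1.58 (SE 0.19, 3-fold, adjusted p = 0.00114) and that of Bub1 -1.25 (SE 0.14, 2.38-fold, adjusted p = 0.00112).

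Promoters of such genes are known for CCAAT boxes, bound by NF-Y, and for the cell cycle homology region (CHR), bound by the DREAM and MuvB complexes. The 250 bases before the RefSeq start of these 4 genes are shown because the group moved together (GRCm38.p6, minus strand, printed 5′ to 3′). They lie at chr9:70421555-70421804 for Ccnb2, chr13:100786487-100786736 for Ccnb1, chr10:69352913-69353162 for Cdk1 and chr2:127831860-127832109 for Bub1, with capitals at TTTGAA (CHR) and CCAAT on either strand.
Ccnb2: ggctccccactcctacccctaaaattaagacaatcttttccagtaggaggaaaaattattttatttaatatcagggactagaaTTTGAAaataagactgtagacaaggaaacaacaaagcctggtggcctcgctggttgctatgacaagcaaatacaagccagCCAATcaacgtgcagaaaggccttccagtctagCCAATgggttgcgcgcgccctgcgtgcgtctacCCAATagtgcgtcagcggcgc
Ccnb1: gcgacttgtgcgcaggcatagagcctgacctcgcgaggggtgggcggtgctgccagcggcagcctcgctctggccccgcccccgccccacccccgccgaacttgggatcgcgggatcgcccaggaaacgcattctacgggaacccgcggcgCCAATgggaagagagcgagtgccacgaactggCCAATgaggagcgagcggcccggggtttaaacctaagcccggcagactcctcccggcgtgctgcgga
Cdk1: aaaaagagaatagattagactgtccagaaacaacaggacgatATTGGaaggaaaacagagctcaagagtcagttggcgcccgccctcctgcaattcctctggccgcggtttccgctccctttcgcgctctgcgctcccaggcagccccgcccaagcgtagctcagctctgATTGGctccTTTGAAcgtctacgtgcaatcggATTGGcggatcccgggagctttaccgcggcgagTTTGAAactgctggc
Bub1: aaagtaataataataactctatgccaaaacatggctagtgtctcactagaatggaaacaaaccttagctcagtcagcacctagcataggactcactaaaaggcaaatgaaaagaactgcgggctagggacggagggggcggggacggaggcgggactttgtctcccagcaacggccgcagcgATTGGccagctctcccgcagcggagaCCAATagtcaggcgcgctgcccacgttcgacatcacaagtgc

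Ccnb2 holds a CHR and 3 CCAAT boxes in this window, Cdk1 2 CHR and 3 CCAAT boxes, and Ccnb1 and Bub1 hold 2 CCAAT boxes each and no TTTGAA. Searched on both strands (TTTGAA or its reverse complement TTCAAA for the CHR, then CCAAT or its reverse complement ATTGG), the CHR letters were in 16% of all 32851 promoter windows, in 13.1% of the 8220 genes tested that have one, and in 11 of the 31 falling mitosis genes that have one (35.5%). CCAAT letters were in 33.8%, 41.2% and 77.4% (24 of 31), and both together in 5.55%, 5.09% and 29% (9 of 31). Among all falling genes, 14.2% had the CHR letters and 47.5% CCAAT, and among rising genes 13.2% and 35.7%. These matches describe letters only.

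Replication-dependent histones have mRNAs that are made in S phase and end in a stem-loop. Of 56 listed, 39 had a probe and 28 passed the filter. Of these 28, 15 fell and 0 rose, beside 9.17% of all genes tested that fell and 5.86% that rose. The 28 differences ran from -0.32 to -1.89 (median -0.93). Of 24 above background on all 16 arrays, 13 fell. The falls numbered 10 with the crossed pairing. Falls of histones numbered 8 on leaving out Lck-/- replicate 4. On slide 1 alone 0 histones fell (median -0.77) and on slide 2 alone 15 (median -1.10). Over all genes tested, 66 fell on slide 1 alone and 950 on slide 2 alone. H4c9 was at 12.02, 12.20, 12.51 and 12.43 in the WT extracts and 11.50, 10.43, 10.92 and 10.81 in the Lck-/- extracts. No WT extract reached into the Lck-/- range, with WT replicate 1 (12.02) and Lck-/- replicate 1 (11.50) closest to each other. It fell by 1.38 (SE 0.22, 2.6-fold, adjusted p = 0.00346). The copies H4c11, H3c1 and H4c4 were at a difference of -1.72 (adjusted p = 0.00239), -1.69 (adjusted p = 0.003) and -1.57 (adjusted p = 0.00441). Their probes share 20 bases with those of 2 other genes each, so such copies may not be told apart. Of the DNA replication list 11 of 45 tested genes fell and 1 rose (median -0.28), with 5 falls in the crossed pairing. On slide 1 alone 0 of them fell and 0 rose (median -0.28). On slide 2 alone 15 fell and 1 rose (median -0.24). For DNA replication genes, the 4 other scalings called 0 higher and 9 to 27 lower. Rises of DNA replication genes numbered 0 on leaving out Lck-/- replicate 4. Falls of DNA replication genes numbered 6 on leaving out WT replicates 1 or 3 or Lck-/- replicate 4 and 7 for WT replicate 2. The polymerase subunits Pole2 and Pola1, the primase subunit Prim2 and the single-strand binding protein Rpa3 fell by 1.23, 0.85, 0.84 and 0.99 (adjusted p = 0.00335, 0.00456, 0.00839 and 0.00742).

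The lists of glycolysis, of sterol and fatty acid synthesis and of serine, one-carbon and nucleotide synthesis had falls and 0 rises, where 9.17% of all genes tested fell and 5.86% rose. Of 24 listed genes of glycolysis and lactate handling, with hypoxia targets among them, 23 were tested, 6 fell and 0 rose (median -0.24; 4 falls with the crossed pairing). Beside Aldoc and Bnip3, the glucose transporter Slc2a1 fell by 1.01 (SE 0.19, adjusted p = 0.00705), and Pfkp, a phosphofructokinase, changed by -0.69 (adjusted p = 0.0133, and 0.0761 with the crossed pairing). Slc2a1 was at 12.46, 12.17, 12.23 and 12.55 in the WT extracts and 10.98, 11.19, 11.40 and 11.79 in the Lck-/- extracts. Extracts of the genotypes were separate, with WT replicate 2 (12.17) and Lck-/- replicate 4 (11.79) at the facing edges. For glycolysis genes, the 4 other scalings called 0 higher and 6 to 14 lower. Rises of glycolysis genes numbered 1 on leaving out Lck-/- replicate 2.

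HIF, the transcription factor of the hypoxia response, binds a core whose forms include ACGTG, and only these letters were searched. The windows of Bnip3 (chr7:138909507-138909756) and Egln3 (chr12:54203875-54204124) are shown because both genes are known HIF targets and among the largest falls. Both windows are on the minus strand of GRCm38.p6 and from RefSeq, with ACGTG on either strand in capitals.
Bnip3: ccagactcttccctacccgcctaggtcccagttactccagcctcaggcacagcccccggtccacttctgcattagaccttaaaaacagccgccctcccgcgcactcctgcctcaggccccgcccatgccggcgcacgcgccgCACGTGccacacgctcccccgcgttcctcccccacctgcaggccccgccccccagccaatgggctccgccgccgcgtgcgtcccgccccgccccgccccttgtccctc
Egln3: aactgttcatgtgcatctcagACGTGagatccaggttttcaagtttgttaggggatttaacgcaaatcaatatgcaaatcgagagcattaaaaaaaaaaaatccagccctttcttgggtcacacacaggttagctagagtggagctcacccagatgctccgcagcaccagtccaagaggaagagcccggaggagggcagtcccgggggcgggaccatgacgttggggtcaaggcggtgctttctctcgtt

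The core (ACGTG or CACGT) was in 16.6% of all promoter windows. Counted by gene, with a match in any window of it, the core was in 26% of the genes tested that have a window. By the same count it was in 24.8% of such falling genes and in 3 of the 5 falling glycolysis genes with a window. The windows of Aldoc held no ACGTG on either strand, and other forms of the core were not searched.

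Of 31 genes of sterol and fatty acid synthesis, all tested, 12 fell and 0 rose (median -0.45, 10 falls with the crossed pairing). Of all genes tested, 9.17% fell and 5.86% rose, beside this list and those that follow. The 12 had no overlap of extracts, as had 1423 of the 1549 genes called. Of all genes tested, 12.9% lay lower in Lck-/- without overlap. Of 26 members above background on all 16 arrays 8 fell. Fdft1, the squalene synthase, was at 10.37, 10.25, 10.36 and 10.03 in the WT extracts and 9.34, 9.25, 9.18 and 9.20 in the Lck-/- extracts. Between the groups there was no overlap, the nearest extracts being WT replicate 4 (10.03) and Lck-/- replicate 1 (9.34). It fell by 1.01 (SE 0.14, 2.01-fold, adjusted p = 0.0024). The sterol reductases Tm7sf2 and Dhcr7 changed by -1.34 (adjusted p = 0.00112) and -1.11 (adjusted p = 0.0024), and the desaturase Scd1 changed by -1.31 (adjusted p = 0.00195), above background on 7 of 8 WT and 1 of 8 Lck-/- arrays. For sterol and fatty acid genes, the 4 other scalings called 0 higher and 11 to 20 lower. The sterol element TCACNCCAC, searched on both strands, was in 1.05% of all windows and in 0 of the 8 falling members with a window. Serine, one-carbon and nucleotide synthesis had 4 falls and 0 rises of 32 (median -0.16; 2 falls with the crossed pairing). They included the purine enzyme Adsl at a difference of -1.07 (adjusted p = 0.00938, and 0.115 with the crossed pairing) and the thymidine kinase Tk1 at a difference of -0.80 (adjusted p = 0.0119). For these synthesis genes, the 4 other scalings called 0 higher and 4 to 12 lower. Rises of these synthesis genes numbered 1 on leaving out Lck-/- replicate 1. Falls of these synthesis genes numbered 2 on leaving out WT replicates 2 or 3 or Lck-/- replicates 3 or 4. Of the integrated stress response list 5 of 17 fell and 0 rose (median -0.02; 2 falls with the crossed pairing), among them the lipoprotein receptor Vldlr at a difference of -1.52 (adjusted p = 0.00138) and the factor Atf3 at a difference of -0.97 (adjusted p = 0.0111). For stress response genes, the 4 other scalings called 0 higher and 3 to 6 lower. Falls of stress response genes numbered 3 on leaving out WT replicates 1, 2, 3 or 4 or Lck-/- replicates 3 or 4. The stress response genes had a median that turned to 0.02 on leaving out Lck-/- replicate 3. Of amino acid transporters 3 of 11 tested members rose and 1 fell (median 0.27, but -0.25 and -0.25 with the 75th percentile scaling and median centring; 0 higher and 0 lower with the crossed pairing). The largest rise was Slc1a4 at a difference of 1.15 (adjusted p = 0.0494, and 0.0726 with the crossed pairing), whose probe holds a TG repeat. For amino acid transporters, the 4 other scalings called 0 to 1 higher and 0 to 3 lower. Rises of amino acid transporters numbered 0 on leaving out WT replicates 2 or 3 or Lck-/- replicate 4 and 1 for WT replicates 1 or 4 or Lck-/- replicates 2 or 3. Falls of amino acid transporters numbered 0 on leaving out WT replicates 1, 3 or 4 or Lck-/- replicates 3 or 4 and 2 for Lck-/- replicate 2. The amino acid transporters had a median that turned to -0.03 on leaving out Lck-/- replicate 2.

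Lists of T cell function held both rises and falls, and in some the counts lay at or below the 5.86% of all genes tested that rose and the 9.17% that fell. Of effector transcription factors, 3 of 15 tested members rose and 3 fell (median -0.13; 3 higher and 2 lower with the crossed pairing). Tbx21, the T-box factor T-bet, was at 13.05, 13.16, 12.64 and 13.21 in the WT extracts and 13.66, 14.42, 14.04 and 14.36 in the Lck-/- extracts. The 4 Lck-/- extracts lay above the 4 WT extracts, and the nearest across the gap were WT replicate 4 (13.21) and Lck-/- replicate 1 (13.66). It rose by 1.10 (SE 0.20, 2.15-fold, adjusted p = 0.00617), next to Eomes and to Irf8 at a difference of 0.81 (adjusted p = 0.0131). Nfil3, a basic leucine zipper factor, fell by 1.22 (SE 0.19, adjusted p = 0.00341). For effector factors, the 4 other scalings called 1 to 3 higher and 2 to 5 lower. Falls of effector factors numbered 1 on leaving out WT replicates 1, 2 or 3 or Lck-/- replicates 3 or 4. Of quiescence and memory genes, 4 of 24 tested members rose and 2 fell (median 0.28, but -0.16 and -0.20 with the 75th percentile scaling and median centring; 2 higher and 2 lower with the crossed pairing). For quiescence and memory genes, the 4 other scalings called 1 to 3 higher and 2 to 3 lower. In quiescence and memory genes, taking Lck-/- replicate 1 from its dye swap alone gave 7 higher and 2 lower. Rises of quiescence and memory genes numbered 2 on leaving out WT replicates 1 or 3 or Lck-/- replicate 4 and 7 for Lck-/- replicate 1. Falls of quiescence and memory genes numbered 1 on leaving out WT replicates 2 or 3. Klf2, a factor that keeps homing receptors on resting T cells, was at 9.50, 10.16, 9.41 and 9.09 in the WT extracts and 10.81, 10.43, 11.01 and 11.15 in the Lck-/- extracts. Tcf7, the factor TCF-1 of naive and memory cells, was at 11.71, 11.63, 11.41 and 11.67 in the WT extracts and 12.30, 13.40, 12.85 and 12.68 in the Lck-/- extracts. In both genes no Lck-/- extract fell into the WT range. Klf2 rose by 1.31 (SE 0.23, 2.48-fold, adjusted p = 0.00567) and Tcf7 by 1.20 (SE 0.21, 2.3-fold, adjusted p = 0.0055). Id3, an inhibitor of E proteins, changed by -1.14 (adjusted p = 0.00346) and Dapl1 -1.48 (adjusted p = 0.0202), the last with overlap.

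Of cytokines and chemokines, 5 of 19 tested members rose and 3 fell (median 0.12, but -0.09 and -0.18 with the 75th percentile scaling and median centring; 3 higher and 0 lower with the crossed pairing). The same shares of all genes tested, 5.86% higher and 9.17% lower, stand beside this list and the next. For cytokines and chemokines, the 4 other scalings called 1 to 4 higher and 1 to 5 lower. Rises of cytokines and chemokines numbered 3 on leaving out WT replicates 2 or 3. Falls of cytokines and chemokines numbered 0 on leaving out WT replicates 2 or 3 or Lck-/- replicate 4 and 1 for WT replicates 1 or 4 or Lck-/- replicates 2 or 3. The cytokines and chemokines had a median that turned to -0.02 on leaving out WT replicate 4 and to -0.01 on leaving out Lck-/- replicate 1. Ifng, the interferon of effector T cells, was at 11.92, 11.83, 12.17 and 11.49 in the WT extracts and 12.88, 13.08, 13.02 and 12.30 in the Lck-/- extracts. No WT extract reached into the Lck-/- range, with WT replicate 3 (12.17) and Lck-/- replicate 4 (12.30) closest to each other. The difference was 0.97 (SE 0.21, 1.96-fold, adjusted p = 0.0119, and 0.0644 with the crossed pairing) and that of Csf2 (GM-CSF) 0.94 (adjusted p = 0.00669). Lymphotoxin beta (Ltb) changed by 0.88 (adjusted p = 0.00938) and the CD30 ligand Tnfsf8 0.88 (adjusted p = 0.0187). Of cytokine receptors, 4 of 20 tested members rose and 1 fell (median 0.16, but -0.06 and -0.12 with the 75th percentile scaling and median centring; 2 higher and 1 lower with the crossed pairing). Il2rg, the common gamma chain, was at 10.88, 10.77, 10.89 and 11.33 in the WT extracts and 9.87, 10.28, 9.58 and 8.93 in the Lck-/- extracts. It fell by 1.30 (adjusted p = 0.0089). Il12rb1 of the interleukin-12 receptor changed by 0.95 (adjusted p = 0.00665), and Il15ra at a difference of 1.22 (adjusted p = 0.0256) is read by a TG-repeat probe. For cytokine receptors, the 4 other scalings called 0 to 4 higher and 1 lower. Rises of cytokine receptors numbered 1 on leaving out WT replicates 2 or 3 or Lck-/- replicates 2 or 4, 2 for Lck-/- replicate 3 and 8 for Lck-/- replicate 1. Of cytotoxic molecules, 1 of 14 tested members rose and 1 fell (median 0.03, but -0.05, -0.26, -0.32 and -0.07 under quantile, 75th percentile, median centring and Agilent's own scaling; 1 higher and 0 lower with the crossed pairing). These were Gzmc upwards and the serpin Serpinb6b downwards at a difference of -0.66 (adjusted p = 0.0255, and 0.129 with the crossed pairing). For cytotoxic molecules, the 4 other scalings called 1 higher and 1 to 4 lower. In cytotoxic molecules, taking Lck-/- replicate 1 from its dye swap alone gave 1 higher and 2 lower. Falls of cytotoxic molecules numbered 0 on leaving out WT replicates 1, 2 or 4 or Lck-/- replicate 4 and 3 for Lck-/- replicate 2. The cytotoxic molecules had a median that turned to -0.01 on leaving out WT replicate 3 and to 0.00 on leaving out Lck-/- replicate 2 and to -0.07 on leaving out Lck-/- replicate 3 and to -0.04 on leaving out Lck-/- replicate 4.

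Of inhibitory and costimulatory receptors, 4 of 23 tested members rose and 4 fell (median -0.22; 2 higher and 3 lower with the crossed pairing). Over all genes tested 5.86% rose and 9.17% fell. For these receptors, the 4 other scalings called 0 to 2 higher and 4 to 9 lower. Rises of these receptors numbered 0 on leaving out WT replicate 3 or Lck-/- replicate 4, 1 for WT replicates 1 or 2 and 2 for Lck-/- replicate 3. Tnfrsf4, the costimulatory receptor OX40, was at 12.89, 12.86, 12.98 and 12.11 in the WT extracts and 11.71, 10.58, 10.70 and 10.54 in the Lck-/- extracts. The groups did not overlap, and the gap between them ran from WT replicate 4 (12.11) to Lck-/- replicate 1 (11.71). It fell by 1.83 (3.55-fold, SE 0.28, adjusted p = 0.00306). Ctla4, an inhibitory receptor of activated T cells, was at 10.62, 10.57, 10.14 and 9.92 in the WT extracts and 9.28, 9.24, 9.01 and 9.24 in the Lck-/- extracts. All WT values were above all Lck-/- values, with WT replicate 4 (9.92) next to Lck-/- replicate 1 (9.28). Its difference was -1.12 (SE 0.18, 2.17-fold, adjusted p = 0.00388), and the inhibitory receptor Btla changed by -0.83 (adjusted p = 0.0131) and the ligand Cd274 (PD-L1), upwards, 0.67 (adjusted p = 0.021). Of early response genes, 3 of 28 tested members rose and 3 fell (median -0.12; 3 higher and 1 lower with the crossed pairing; of 19 above background on all arrays 3 rose and 0 fell, with a median of 0.21). The phosphatase Dusp4 changed by -1.12 (adjusted p = 0.00445) and Junb -0.76 (adjusted p = 0.0074, and 0.0505 with the crossed pairing). The inhibitor of NF-kappaB Nfkbia changed by 0.99 (adjusted p = 0.00623) and the phosphatase Dusp2 0.89 (adjusted p = 0.0113). For early response genes, the 4 other scalings called 0 to 3 higher and 4 to 7 lower. The early response genes had a median that turned to 0.03 on leaving out Lck-/- replicate 1. Of receptor signalling genes, 2 of 30 tested members rose and 0 fell (median 0.12, but -0.17 and -0.21 with the 75th percentile scaling and median centring; 1 higher and 0 lower with the crossed pairing), and they were the exchange factor Vav1 at a difference of 0.93 (adjusted p = 0.0107) and Nfatc1 at a difference of 0.78 (adjusted p = 0.0397, and 0.102 with the crossed pairing). For receptor signalling genes, the 4 other scalings called 0 to 1 higher and 1 to 5 lower. Rises of receptor signalling genes numbered 1 on leaving out WT replicates 1, 2, 3 or 4 or Lck-/- replicates 3 or 4 and 5 for Lck-/- replicate 1. Falls of receptor signalling genes numbered 1 on leaving out WT replicate 3.

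The translation machinery gave counts that hung on the scaling and the pairing, beside 5.86% of all genes tested that rose and 9.17% that fell. Of 82 cytosolic ribosomal proteins, all tested, 20 rose and 0 fell (median 0.48), but 2 rose with the crossed pairing, and 0 rose under any of the 4 other scalings. The median was then 0.15 with the polysomal channels quantile-normalised alone, 0.09 from Agilent's processed signals, -0.16 with the 75th percentile and -0.11 with median centring. For ribosomal proteins, the 4 other scalings called 0 higher and 0 to 4 lower. Rises of ribosomal proteins numbered 3 on leaving out Lck-/- replicates 3 or 4, 5 for WT replicate 2, 7 for WT replicates 3 or 4, 8 for WT replicate 1 and 34 for Lck-/- replicate 2. Rps10 was at 16.50, 16.24, 16.40 and 16.05 in the WT extracts and 17.12, 16.75, 17.22 and 17.27 in the Lck-/- extracts. Between the groups there was no overlap, the nearest extracts being WT replicate 1 (16.50) and Lck-/- replicate 2 (16.75). Rps10 rose by 0.79 (SE 0.17, 1.73-fold, adjusted p = 0.0119, and 0.0637 with the crossed pairing) and Rpl8 by 0.76 (SE 0.15, 1.7-fold, adjusted p = 0.0103). The same 82 mRNAs had a median of -0.49 in the sub-polysomal pool, and 49 of 82 were higher in the ratio of the pools (median 1.02), against 2.62% of the 8499 genes with a tested ratio. That count did not hold: with the crossed pairing 1 of 82 was higher, against 0.482% of all genes with a tested ratio. With median centring 0 were higher and 6 lower (median -0.15), where 0.377% of all such genes were higher. On leaving out WT replicate 1, Lck-/- replicate 3 or Lck-/- replicate 4 the ratio called 21, 16 and 19 higher. Elongation factors and other mRNAs with a terminal oligopyrimidine tract (TOP) had 5 rises and 2 falls of 20 (median 0.45, but -0.20 and -0.13 with the 75th percentile scaling and median centring; 1 rise with the crossed pairing). Among the rises were Tpt1 at a difference of 0.77 (adjusted p = 0.0119) and Eef1g at a difference of 0.65 (adjusted p = 0.0268, and 0.0533 with the crossed pairing), which turned to -0.0079 with the 75th percentile scaling. For TOP mRNAs, the 4 other scalings called 0 higher and 2 to 4 lower. Rises of TOP mRNAs numbered 1 on leaving out WT replicates 1 or 3 or Lck-/- replicates 3 or 4 and 2 for WT replicate 4. Falls of TOP mRNAs numbered 0 on leaving out WT replicates 1 or 3 or Lck-/- replicates 3 or 4 and 1 for WT replicates 2 or 4 or Lck-/- replicate 2.

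Of ribosome biogenesis factors, 5 of 54 tested members rose and 1 fell (median 0.29, but -0.21 and -0.21 with the 75th percentile scaling and median centring; 2 higher and 0 lower with the crossed pairing). Among all genes tested 5.86% rose and 9.17% fell, beside these and the lists that follow. For biogenesis factors, the 4 other scalings called 0 to 2 higher and 1 to 6 lower. In biogenesis factors, taking Lck-/- replicate 1 from its dye swap alone gave 9 higher and 1 lower. Rises of biogenesis factors numbered 0 on leaving out Lck-/- replicate 4, 1 for WT replicate 2, 2 for WT replicates 1, 3 or 4 or Lck-/- replicate 3 and 10 for Lck-/- replicate 1. Falls of biogenesis factors numbered 0 on leaving out WT replicate 3 or Lck-/- replicate 4 and 3 for Lck-/- replicate 1. The acetyltransferase Nat10 of 18S rRNA changed by 0.56 (adjusted p = 0.0195), the polymerase I subunit Polr1a 0.71 (adjusted p = 0.0268), the methyltransferase Fbl 0.75 (adjusted p = 0.0294, and 0.0622 with the crossed pairing) and the small-subunit factor Nop14 -0.85 (adjusted p = 0.0172, and 0.0801 with the crossed pairing). Of translation initiation factors, 2 of 37 tested members rose and 4 fell (median 0.00, but -0.07, -0.48, -0.46 and -0.05 under quantile, 75th percentile, median centring and Agilent's own scaling; 1 higher and 0 lower with the crossed pairing). For initiation factors, the 4 other scalings called 0 to 2 higher and 1 to 11 lower. In initiation factors, taking Lck-/- replicate 1 from its dye swap alone gave 5 higher and 5 lower. Rises of initiation factors numbered 4 on leaving out Lck-/- replicate 1 and 5 for Lck-/- replicate 2. Falls of initiation factors numbered 0 on leaving out WT replicates 1, 3 or 4 or Lck-/- replicates 3 or 4 and 1 for WT replicate 2. The initiation factors had a median that turned to -0.02 on leaving out WT replicate 1 and to -0.03 on leaving out WT replicate 2 and to -0.07 on leaving out Lck-/- replicate 2 and to 0.00 on leaving out Lck-/- replicate 3. Of eIF3, Eif3d changed by 0.81 (adjusted p = 0.00833) and Eif3e -0.76 (adjusted p = 0.0302, and 0.186 with the crossed pairing). Of aminoacyl-tRNA synthetases, 1 of 22 tested members rose and 1 fell (median 0.19, but -0.23 and -0.26 with the 75th percentile scaling and median centring; 1 higher and 1 lower with the crossed pairing). Hars changed by 1.03 (adjusted p = 0.00717) and Vars -0.90 (adjusted p = 0.00665). For aminoacyl-tRNA synthetases, the 4 other scalings called 0 to 1 higher and 1 to 6 lower. In aminoacyl-tRNA synthetases, taking Lck-/- replicate 1 from its dye swap alone gave 2 higher and 1 lower. Rises of aminoacyl-tRNA synthetases numbered 7 on leaving out Lck-/- replicate 1. Falls of aminoacyl-tRNA synthetases numbered 2 on leaving out Lck-/- replicate 2. Of Myc and its network 0 of 10 tested members passed in either direction (median 0.17, although it was -0.06 under median centring). For Myc network genes, the 4 other scalings called 0 higher and 0 to 1 lower. In Myc network genes, taking Lck-/- replicate 1 from its dye swap alone gave 2 higher and 0 lower. Rises of Myc network genes numbered 1 on leaving out Lck-/- replicate 1.

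Of nuclear-encoded subunits of oxidative phosphorylation, 0 of 76 tested members rose and 11 fell (median -0.13; 0 higher and 5 lower with the crossed pairing). That is beside 5.86% of all genes tested that rose and 9.17% that fell. For respiratory subunits, the 4 other scalings called 0 higher and 7 to 37 lower. Rises of respiratory subunits numbered 1 on leaving out Lck-/- replicate 1. Falls of respiratory subunits numbered 1 on leaving out Lck-/- replicate 4, 3 for WT replicate 3, 4 for WT replicates 2 or 4, 6 for WT replicate 1 or Lck-/- replicate 3 and 7 for Lck-/- replicate 2. The ATP synthase subunit Atp5j changed by -1.02 (adjusted p = 0.00447), cytochrome c (Cycs) -0.90 (adjusted p = 0.0155) and the complex I subunit Ndufa11 -1.22 (adjusted p = 0.0158, and 0.0641 with the crossed pairing). Of mitochondrial ribosomal proteins, 0 of 76 tested members rose and 9 fell (median -0.12; 0 higher and 2 lower with the crossed pairing). For mitochondrial ribosomal proteins, the 4 other scalings called 0 higher and 7 to 24 lower. Falls of mitochondrial ribosomal proteins numbered 3 on leaving out WT replicate 3 or Lck-/- replicate 4. The mitochondrial ribosomal proteins had a median that turned to 0.02 on leaving out Lck-/- replicate 2. Mrps22 changed by -1.10 (adjusted p = 0.00828, and 0.0708 with the crossed pairing) and Mrpl37 -0.78 (adjusted p = 0.0112). Of 13 mRNAs made in mitochondria, which have ribosomes of their own, 2 rose and 3 fell (median -0.06; 0 higher and 1 lower with the crossed pairing), with ND4 at a difference of -1.39 (adjusted p = 0.00445) and ND6 at a difference of 1.51 (adjusted p = 0.0396, and 0.0614 with the crossed pairing, and 0.0777 with Lck-/- replicate 1 from its dye swap alone). Their sub-polysomal median was -1.73, and 9 of 13 were higher in the ratio (median 1.62), against 2 with the crossed pairing and 5 with median centring or with Lck-/- replicate 1 from its dye swap alone. On leaving out Lck-/- replicate 3 the ratio called 2 of them, for WT replicate 1 or Lck-/- replicate 4 it called 4, and for WT replicate 3 or 4 it called 5. Of the 8499 genes with a tested ratio 2.62% were higher, with 0.482% in the crossed pairing and 0.377% under median centring. With Lck-/- replicate 1 from its dye swap alone 222 of the 8499 were higher. For mitochondrially made mRNAs, the 4 other scalings called 0 to 1 higher and 3 to 6 lower. In mitochondrially made mRNAs, taking Lck-/- replicate 1 from its dye swap alone gave 0 higher and 4 lower. Rises of mitochondrially made mRNAs numbered 0 on leaving out WT replicate 3 or Lck-/- replicates 3 or 4 and 1 for WT replicates 1, 2 or 4 or Lck-/- replicates 1 or 2. Falls of mitochondrially made mRNAs numbered 1 on leaving out WT replicates 1, 2, 3 or 4 or Lck-/- replicates 3 or 4. The mitochondrially made mRNAs had a median that turned to 0.08 on leaving out WT replicate 2 and to 0.05 on leaving out Lck-/- replicate 4.

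The lists that follow stand beside 5.86% of all genes tested that rose and 9.17% that fell. Of proteasome subunits, 6 of 38 tested members rose and 6 fell (median 0.20, but -0.35 and -0.31 with the 75th percentile scaling and median centring; 2 higher and 1 lower with the crossed pairing). Examples are Psmb2 at a difference of -1.36 (adjusted p = 0.0052), Psmd4 at a difference of 0.87 (adjusted p = 0.0119) and Psme3, read by a TG-repeat probe, at a difference of 1.36 (adjusted p = 0.0195). For proteasome subunits, the 4 other scalings called 0 to 2 higher and 3 to 9 lower. Rises of proteasome subunits numbered 1 on leaving out Lck-/- replicate 4, 2 for WT replicates 1 or 4 or Lck-/- replicate 3 and 3 for WT replicate 3. Falls of proteasome subunits numbered 1 on leaving out Lck-/- replicate 4, 2 for WT replicate 3 and 3 for WT replicate 4 or Lck-/- replicate 3. Of chaperones, 1 of 30 tested members rose and 1 fell (median 0.21, but -0.31 and -0.30 with the 75th percentile scaling and median centring; 0 higher and 1 lower with the crossed pairing). The chaperonin subunit Tcp1 changed by -1.10 (adjusted p = 0.0113) and Hspa8 0.52 (adjusted p = 0.0296, and 0.12 with the crossed pairing). Scaling turned Hspa8 to -0.16 under the 75th percentile scaling and -0.070 under median centring. For chaperones, the 4 other scalings called 0 higher and 1 to 4 lower. In chaperones, taking Lck-/- replicate 1 from its dye swap alone gave 3 higher and 1 lower. Rises of chaperones numbered 0 on leaving out WT replicates 1, 3 or 4 or Lck-/- replicates 3 or 4 and 4 for Lck-/- replicate 1. Falls of chaperones numbered 3 on leaving out Lck-/- replicate 1. Of interferon response genes, 3 of 31 tested members rose and 1 fell (median 0.15, but -0.12 and -0.20 with the 75th percentile scaling and median centring; 0 higher and 1 lower with the crossed pairing). The peptide transporter Tap1 changed by -0.90 (adjusted p = 0.00447) and Bst2 0.89 (adjusted p = 0.0131, and 0.0801 with the crossed pairing). For interferon response genes, the 4 other scalings called 2 to 3 higher and 1 to 2 lower. In interferon response genes, taking Lck-/- replicate 1 from its dye swap alone gave 5 higher and 1 lower. Rises of interferon response genes numbered 1 on leaving out WT replicates 1, 2, 3 or 4 or Lck-/- replicates 3 or 4 and 9 for Lck-/- replicate 1. Of spliceosome and hnRNP genes, 4 of 43 tested members rose and 0 fell (median 0.15, but -0.32 and -0.34 with the 75th percentile scaling and median centring; 0 higher and 0 lower with the crossed pairing). Called rises include Hnrnpm at a difference of 0.78 (adjusted p = 0.0185, and 0.0675 with the crossed pairing). For spliceosome and hnRNP genes, the 4 other scalings called 0 higher and 0 to 5 lower. In spliceosome and hnRNP genes, taking Lck-/- replicate 1 from its dye swap alone gave 6 higher and 1 lower. Rises of spliceosome and hnRNP genes numbered 0 on leaving out WT replicate 3 or Lck-/- replicate 4, 1 for WT replicates 1 or 4 or Lck-/- replicate 2 and 2 for WT replicate 2 or Lck-/- replicate 3. Falls of spliceosome and hnRNP genes numbered 1 on leaving out Lck-/- replicate 2 and 2 for Lck-/- replicate 1. Of 8 GIMAP GTPases, a family of lymphocytes, 0 passed (median 0.11, but -0.29 and -0.30 with the 75th percentile scaling and median centring). For GIMAP genes, the 4 other scalings called 0 higher and 0 to 1 lower. Rises of GIMAP genes numbered 1 on leaving out Lck-/- replicate 1.

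**Figure D4:**
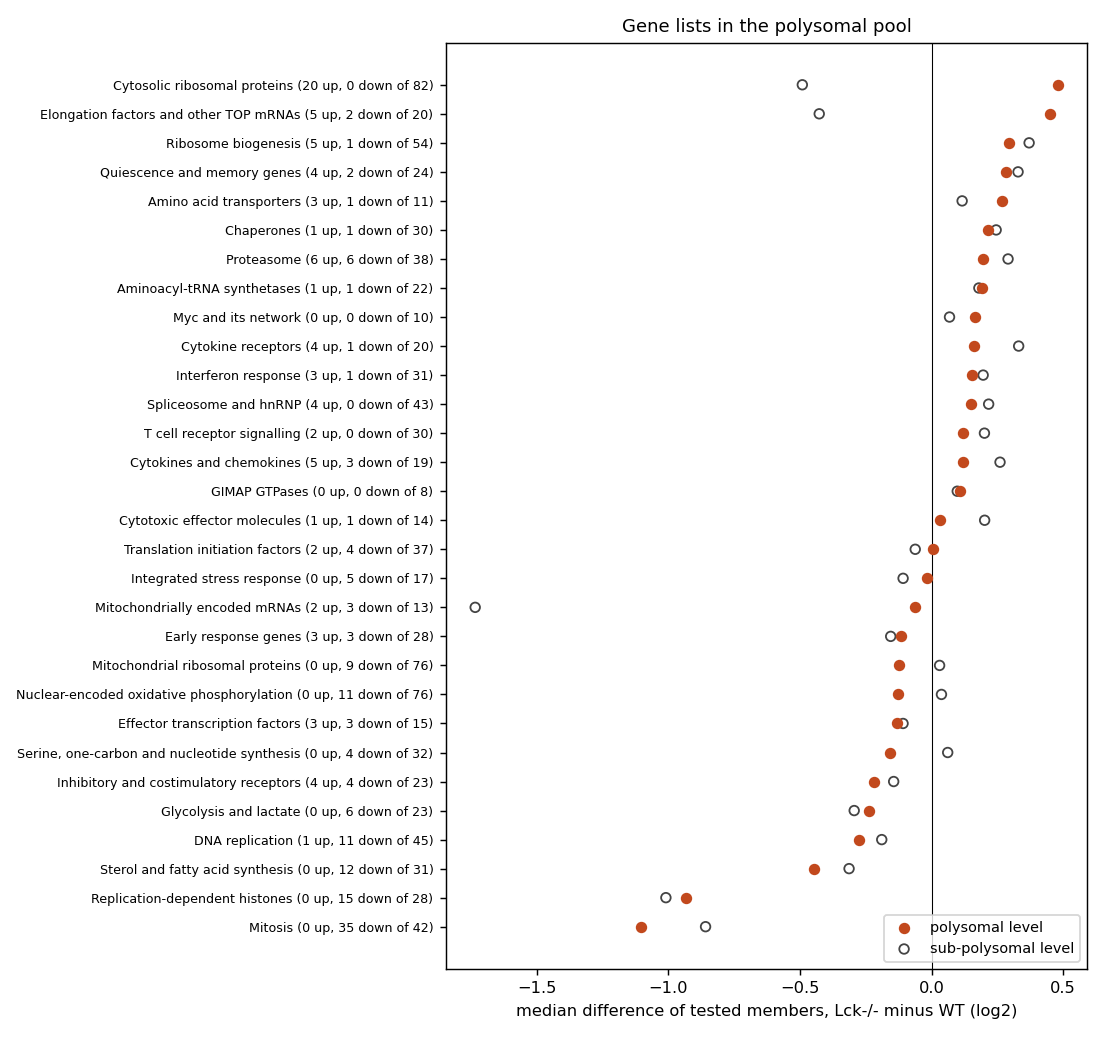
Median difference (Lck-/- minus WT, log2) of the tested members of each gene list in the polysomal pool (filled) and in the sub-polysomal pool (open), with counts of members called higher and lower in the polysomal pool. Mitosis and histones lie furthest to the left in the polysomal pool, mitochondrially made mRNAs lie furthest to the left in the sub-polysomal pool at -1.73, and ribosomal proteins lie at 0.48 in the polysomal and -0.49 in the sub-polysomal pool under the scaling used here.

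The polysomal level was set beside the ratio of polysomal to sub-polysomal RNA on the same arrays; both use the polysomal channel, so the values stand side by side and no overlap is read as a result. Of all genes, 8499 had a tested ratio, of which 223 (2.62%) were higher and 77 (0.906%) lower in Lck-/-, in all 300 or 3.53%. Of the 1549 genes called in the polysomal level 1316 had a tested ratio, and 114 of them were called in it. Among 568 such rises 77 had a higher and 1 a lower ratio, and among 748 falls 30 had a lower and 6 a higher one. With the crossed pairing 41 genes were higher in the ratio (0.482%) and 0 lower, and of single extracts left out WT replicates 1 and 3 and Lck-/- replicates 3 and 4 gave 109, 146, 89 and 96 higher. The lower ones numbered 5, 17, 10 and 41 without WT replicates 1, 2, 3 and 4, and 132, 6 and 5 without Lck-/- replicates 2, 3 and 4. Median centring sets the median ratio over the spots of each array to 0, not that of the genes tested. It moved the median ratio difference of the tested genes from -0.04 to -0.77 and gave 32 higher (0.377%) and 4686 lower. The side of 0 on which a ratio difference falls therefore depends on this choice. The sub-polysomal level itself had 1961 called genes of 9719 (20.2%).

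Falls of the ratio were led by Gtf3a, the factor TFIIIA that binds 5S RNA genes, at a difference of -0.91 (adjusted p = 0.0168), with -1.50 in the polysomal and -0.59 in the sub-polysomal pool. Top2a, the topoisomerase of dividing cells, had -0.89 (adjusted p = 0.0287; -1.35 and -0.45 in the pools), and Lgmn, a lysosomal protease, -0.73 (adjusted p = 0.0133) with both pools higher (0.66 and 1.38). With the crossed pairing these 3 were at an adjusted p of 0.671, 0.147 and 0.424. The rises were Exosc2 (2.72, adjusted p = 0.00158), Milr1 (2.67, adjusted p = 0.00158), Mfsd2b (2.38, adjusted p = 0.00158), Lrrc31 (2.36, adjusted p = 0.00183), Clca1 (2.26, adjusted p = 0.00158) and Gla (2.15, adjusted p = 0.00183). All 6 were also called with the crossed pairing, at adjusted p of 0.00835 to 0.00869, and with median centring, at differences of 1.02 to 1.48. Milr1 was at 14.80, 15.13, 14.48 and 15.28 in the WT extracts and 16.09, 16.63, 16.61 and 16.78 in the Lck-/- extracts. Extracts of the genotypes were separate, with WT replicate 4 (15.28) and Lck-/- replicate 1 (16.09) at the facing edges. Its sub-polysomal level differed by -1.06, and that of Exosc2 by -1.23.

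The probes of these genes share letters; the stretches were picked after the values were seen and get no test. The probes of Milr1 and Exosc2 have 39 bases in common, of which the middle 24 are printed first, and those of Mfsd2b, Lrrc31 and Clca1 have 11 in common.
Milr1 and Exosc2: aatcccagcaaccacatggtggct
Mfsd2b, Lrrc31 and Clca1: ctgaagacagc

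The 11 bases were in the probes of 14 genes tested, of which 13 were higher and 0 lower in the polysomal pool, with medians of 1.30 in the polysomal and -1.03 in the sub-polysomal pool. In the ratio, 13 of the 14 were higher (median 2.38), against 2.62% of all genes with a tested ratio. These 13 are 5.83% of all genes with a higher ratio. Whether these probes measure the genes they are named for was not tested, and the same holds for Milr1 and Exosc2 among the largest rises.

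Repeats in the probes were the other sequence feature of the rises, noticed after the values were seen. These stretches come from the probes of named genes, with the run of TG in capitals.
Ralgps1: catccTGTGTGTGTGTGcgcgc
Tmprss3: aaaagTGTGTGTGTGTGcatgt
Psme3: gcacaTGTGTGTGTGTGttcgt
Il15ra: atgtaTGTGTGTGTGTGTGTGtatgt
Slc1a4: tcaagTGTGTGTGTGtatgt

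Of the genes tested, 112 were read by a probe with a TG run of 10 or more bases, and 71 of them rose and 0 fell, with a median of 1.15 log2 against 0.00 for all genes. Their median level was 12.83, 12.39, 11.76 and 12.78 in the WT extracts and 12.99, 13.82, 13.48 and 14.35 in the Lck-/- extracts, so WT replicate 3 was lowest and Lck-/- replicate 4 highest. With runs of 20 or more bases 37 of 42 rose (median 1.22), whereas of 33 genes with a CA run of 10 or more bases 0 rose and 1 fell (median -0.46). The median of the 112 was 1.11 from the Cy5 arrays and 1.19 from the Cy3 arrays, 1.09 on slide 1 and 1.18 on slide 2, and 0.62 with the 75th percentile scaling, where 0 were called. The rises numbered 45 with the crossed pairing, 12 without WT replicate 2, 16 without WT replicate 3, 21 without Lck-/- replicate 2, 44 without Lck-/- replicate 3 and 3 without Lck-/- replicate 4. In the sub-polysomal pool the median of the 112 was 0.52. In the ratio 0 of 108 were called higher, against 2.62% of all genes with a tested ratio. The median ratio difference of the 108 was nevertheless 0.67, and 0.80 for runs of 20 or more bases, against -0.04 for all genes. Rises from such probes made up 71 of the 604, and with these probes left out 528 genes rose and 939 fell. In a set that overlaps the TG probes, 164 genes were read by probes that share 20 bases with the probes of at least 5 other genes. Of these, 68 rose and 0 fell (median 0.55), and Il15ra and Slc1a4 are among the genes in both sets.

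**Figure D5:**
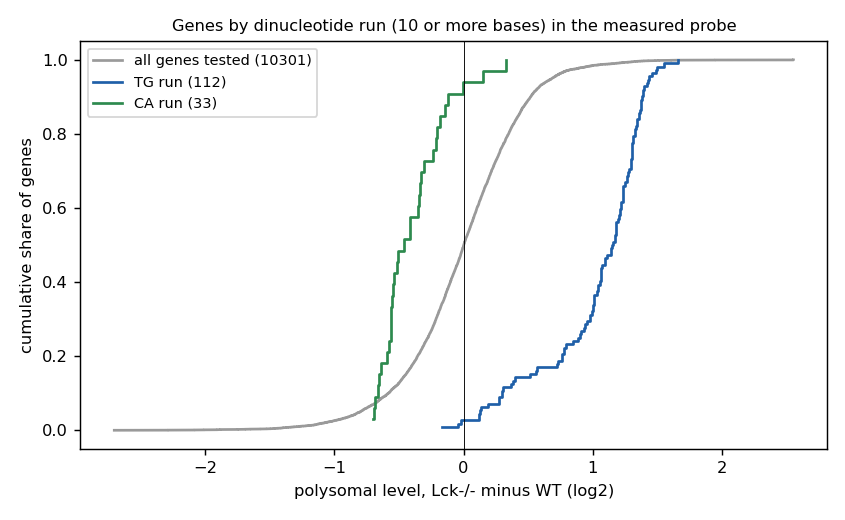
Cumulative share of genes (vertical) by polysomal difference (Lck-/- minus WT, log2, horizontal), for all 10301 genes tested, for the 112 read by a probe with a TG run of 10 or more bases and for the 33 with a CA run. The TG curve lies to the right, with a median of 1.15, and the CA curve to the left, with a median of -0.46.

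The labelled cell type was read from marker lists. All 10 CD8 T cell markers were tested, with a summed level of 16.48 to 16.76 in WT and 16.58 to 16.95 in Lck-/-. Of the 10, 0 rose and Cd5 fell by 0.60 (adjusted p = 0.034, and 0.0668 with the crossed pairing). Of B cell markers 1 of 10 was tested (Cd79b). Of macrophage and dendritic cell markers 9 of 20 were tested, with Siglech at a difference of 0.69 (adjusted p = 0.0394, and 0.138 with the crossed pairing), Batf3 at a difference of -1.03 (adjusted p = 0.0245) and H2-Ab1 at a difference of -0.92 (adjusted p = 0.00601). Their summed level was 14.16 to 14.63 in WT and 14.74 to 15.13 in Lck-/-, without overlap. Siglech is by far the brightest of them, with a mean of 13.96 in WT and 14.65 in Lck-/-, the next being H2-Ab1 at 10.95 and 10.04, and the median difference of the 9 was 0.04. Of NK cell markers 5 of 10 were tested and only Eomes was called. Ncr1, which defines NK cells, was above background on 1 of 8 WT and 3 of 8 Lck-/- arrays, and the summed level was 13.996 to 14.64 in WT and 14.39 to 15.20 in Lck-/-. The brightest of the 5 were Nkg7, with means of 13.42 in WT and 13.17 in Lck-/-, and Il2rb with 13.04 and 13.65. The mean of Eomes was 9.64 and 11.79. Of CD4 and regulatory T cell markers 3 of 5 were tested, with Ikzf2 at a difference of -0.65 (adjusted p = 0.0263, and 0.119 with the crossed pairing) and Foxp3 above background on 3 of 8 and 4 of 8 arrays (summed level 11.31 to 12.14 and 11.87 to 12.31). Granulocyte and mast cell markers (3 of 10 tested, 13.68 to 14.33 and 14.27 to 14.63) and stromal and endothelial markers (1 of 12, 7.20 to 7.40 and 7.23 to 7.43) had no called member. The part of these cells in the results was not tested.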

How the data were processed

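Polysomal RNA of 8 extracts (4 WT, 4 Lck-/-) was measured on 16 arrays, on 2 slides with 4 arrays of each genotype each, next to sub-polysomal RNA in the other dye. In the scanner output as deposited, each spot has an intensity, a background intensity and yes-or-no flags of unit other; per the file headers, Agilent Feature Extraction (10.7.3.1) made it, and probes were placed on mm9. The submitters' processing notes name limma without a version. A deposited table of the authors holds 8 columns of ratios, which were not used, since they do not give the polysomal channel.

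Here, limma 3.58.1 in R 4.3.3, with data.table (1.17.8) for reading, took intensity through these steps: normexp on mean signal and median background (offset 50), loess within arrays with controls and outlier spots at weight 0, Aquantile between arrays, then the polysomal channel, averaged over the 2 arrays of an extract. The brightest probe stood for a gene (22328 genes with a probe; 24300 probes without a gene left out). Tested genes were well above background on at least 6 of 8 arrays of at least 1 genotype. Linear models with empirical Bayes variances gave p, adjusted by Benjamini-Hochberg (threshold 0.05) over all genes tested; single values were compared with exact permutation tests. A probe below background on all arrays of a group gives a lower bound of its fold, from the signal that the dimmest detected probes have. Depth was counted as probes above background, and the number of extracts limits the precision. The scripts were tested on simulated data.

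Loess and Aquantile use both channels, so a shift shared by most genes is removed, and the direction balance rests on that choice. Same replicate numbers did not pair WT with Lck-/- extracts (correlations of deviations -0.04, 0.05, 0.47 and -0.12). Alternatives changed the scaling, background, filter, probe choice, dye, slide, block, weights, pairing of dye swaps and extracts used. Leaving out probes with a TG run, the crossed pairing for the signal and the ratio, and Lck-/- replicate 1 from its dye swap alone were chosen after seeing the data.

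Members and gene lists were chosen with earlier results of these data known. Named genes are Lck, the 12 largest rises and 12 largest falls with no overlap of extracts (without probes of widely shared sequence, clone or predicted names and receptor segments), up to 4 called members per list with the smallest p, the 6 largest ratio differences each way among genes called in both, and marker genes; text examples come from these. Promoter windows are from RefSeq (GRCm38.p6). Values of 3 genes that these rules name are not reported here.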

Additional observations from a re-analysis of the deposited data

Results flagged for a closer look

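In groups of 4 extracts, 1 extract can stand far from the other 3; the share of the group's range taken by its gap to the nearest other was set against the 95% limit of Dixon's test, which chance passes in about 1 in 20 groups. The named genes numbered 133, each with a WT and a Lck-/- group, so chance alone gives some such flags. Among these genes, WT replicate 3 was low in Scd2 (0.833) and high in Csf2 (0.845) and in the purine enzyme Adsl (0.862). WT replicate 4 was low in Mgarp (0.853), in Psmd4 (0.853) and in Tnfrsf4 (0.864), where Lck-/- replicate 1 was also high in its own group (0.860). Lck-/- replicate 1 was high in Nusap1 (0.923), and Lck-/- replicate 4 was low in Cd81 (0.924). Lck-/- replicate 3 was low in the cyclin Ccnb2 (0.851), in Irf8 (0.836) and in Ctla4 (0.858), and Lck-/- replicate 2 was low in Eif3d (0.844) and in Atf3 (0.951).

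The genotype difference was not the same in polysomal and sub-polysomal RNA for 3 of the largest changes, by limma's test of the ratio: 0.78 log2 for Hba-a2, 2.67 for Milr1 and 2.72 for Exosc2. With the crossed pairing and with median centring, Milr1 and Exosc2 were still called in the ratio and Hba-a2 was not.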

How the results depend on the processing

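Over all genes, 604 were higher and 945 lower as reported. The higher ones numbered 359 with the polysomal channels quantile-normalised alone, 41 with the 75th percentile scaling, 292 from Agilent's processed signals, 976 on slide 2 alone and 996 with Lck-/- replicate 1 from its dye swap alone. Higher and lower genes numbered 52 and 2133 with median centring, 25 and 115 from Cy5 arrays, 106 and 227 from Cy3 arrays, 19 and 66 on slide 1, 2145 and 1948 with array weights, 209 and 487 with the crossed pairing, 331 and 449 with both the crossed pairing and the dye swap alone, and 42 and 191 without WT replicates 1 and 2 (fewer arrays or extracts in the dye, slide and left-out cases). Without 1 extract they ranged from 162 to 1345 and from 519 to 1151. The replicate block, on numbers that gave no consistent pairing of the extracts, gave 566 and 840. In the ratio, median centring gave 32 and 4686, the crossed pairing 41 and 0, and single extracts left out 89 to 280 and 5 to 132. Lck stayed negative in every setting run but missed the threshold at -0.84 from Cy5 arrays, -0.98 from Cy3 arrays, -1.05 on slide 1 and -0.78 without WT replicates 1 and 2. The fall of the signal before normalisation was -0.34 from Cy5 and -0.48 from Cy3 arrays, -0.35 on slide 1, -0.46 on slide 2, -0.28 from Agilent's processed signals and -0.42 with the crossed pairing, none past the threshold, and -0.30 to -0.51 without 1 extract. Eef1g turned to -0.0079 with the 75th percentile scaling; Eef1d, Hspa8 and U2af1 turned to -0.083, -0.16 and -0.090 with it and to -0.0060, -0.070 and -0.049 with median centring. Of 132 results for named genes, the crossed pairing took 42 below the threshold, slide 1 alone 105 and the dye swap alone 2, with no turn of direction in these 3. Where fewer samples or other scalings do not show it, the cause was not tested. Probes near background, such as Rab6b and Scd1 in Lck-/- extracts, limit how large a fall can be measured.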
